A study of Mus musculus with 78 samples.

Results

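Flank tissue of DC101-treated mice labelled day 60 (6 arrays) was set against flank tissue of DC101-treated mice labelled day 20 (8 arrays), all injected with Ad-VEGF-A164. The members were chosen by the source label alone and make up 14 of the 78 arrays of the series. Every array held total RNA of flank tissue from female athymic nude mice (Crl:NU(NCr)-Foxn1nu), given as 4 to 6 weeks old, a strain without a thymus and so with few T cells. The same age is given for every group, so whether day 60 and day 20 mice were equally old at harvest cannot be told from it. Both groups carried the same adenovirus, which makes infected skin cells produce VEGF-A164 and was injected into the dermis of flank and ears. Both received DC101 at 20 mg/kg into the peritoneal cavity. The labels tie the antibody to the day without saying whether the day counts dosing or harvest, and mice injected with an empty virus were not analysed here. Untreated Ad-VEGF-A164 mice (8 arrays at day 60 and 8 at day 20), Ad-VEGF-A164 mice given the antibody G6 at 10 mg/kg (8 and 8) DC101-treated mice at day 5 (8) and control flank at day 0 (8) are used only to set the DC101 values beside others. Which arrays came from one mouse is not given, and if some did, the p-values are too small.

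VEGF-A acts on endothelial cells mainly through the receptor tyrosine kinase VEGFR2, the product of Kdr. DC101 is a rat antibody that binds mouse VEGFR2 and blocks it. Skin that overproduces VEGF-A first forms leaky, enlarged mother vessels and later vascular malformations and feeding arteries and draining veins, and the labels' treatment protocol ties the choice of several time points to vessels that form at different times.

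Signals are given as log2(MAS5 signal + 16), where 1 unit is 2-fold, and a change is day 60 minus day 20 with the standard error (SE) of the linear model. A gene is said to rise or fall when its p-value, adjusted over all 14718 genes, was under 0.05. By this rule 1380 genes changed (9.38% of those tested), of which 581 rose (3.95%) and 799 fell (5.43%). The change was at least 2-fold in 287 of them (1.95%), 120 higher (0.815%) and 167 lower (1.13%). The arrays of the groups did not overlap for 251 genes (1.71%), 85 higher (0.578%) and 166 lower (1.13%). The median change of all genes was -0.01, and 48.3% of them had a positive change.

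Several features of the arrays move with the comparison, and their part in the results was not tested beyond the values given here and below. The ratio of the 3' to the 5' control probe set of Actb, which rises as RNA degrades, ran from 1.17 to 1.56 at day 60, against 1.35 to 2.26 at day 20 (exact two-sided permutation p = 0.00266). That of Gapdh ran from 0.783 to 0.819 at day 60, against 0.799 to 1.07 at day 20 (exact two-sided permutation p = 0.0646). With both ratios as covariates 453 genes were called, 402 of them among the 1380. Krt10, a keratin of differentiating epidermis, was higher on the array of odd running number than on its even neighbour in 7 of 7 neighbouring pairs. Odd and even arrays were equally many within each group, so a term for odd or even could not move any change, and with it 1379 calls stayed. All 1380 calls had the same sign among odd and among even arrays, which choosing genes on both together makes likely. Neither result shows how far a change depends on odd or even arrays. Day 20 arrays 68 and 72 held more muscle signal than the other 6. Day 60 arrays 93 and 94 correlated with day 20 arrays at up to 0.955 and 0.941, where the other day 60 arrays reached 0.93 to 0.948. Array 94 was thus not set apart by this measure. With all other day 60 arrays, each other included, array 93 correlated at 0.882 to 0.959 and array 94 at 0.919 to 0.959. Markers of keratinocytes, fibroblasts, endothelium and muscle were all present, while the T cell markers Cd3e and Cd3d and the erythroid marker Hba-a1 did not pass the filter on low values. The T cell markers Cd3g and Cd8a and the erythroid markers Alas2 and Slc4a1 passed it, and none of them was called.

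A part of the endothelial genes fell. Of 36 genes expressed across the endothelium, 18 fell and none rose (median change -0.86). They include the receptor kinase Tie1 and the transcription factors Sox18, Sox17 and Sox7. Among them too are Gpihbp1, which anchors lipoprotein lipase in capillaries, and Cdh5 (VE-cadherin), which joins endothelial cells. Cdh5 was not called with the control ratios as covariates (adjusted p = 0.0549), with adjacent arrays averaged in pairs (0.122) or with only both groups in the fit (0.0769). It also lost its call without any 1 of 3 arrays, and its other probe set changed by 0.089. Of 25 genes of sprouting tip cells or VEGF-stimulated endothelium, 11 fell and none rose (median -0.68). With the control ratios as covariates 14 and 8 members fell, and with arrays of adjacent running numbers averaged in pairs 10 and 4 did. Of all genes 292 and 287 fell under these settings, against the 799 given above. Within odd arrays alone 14 of the 36 fell and within even arrays 0 (median changes -1.28 and -0.41). Of all genes 230 and 206 were called there, in either direction. Fewer endothelial cells and less RNA per endothelial cell cannot be told apart in bulk tissue.

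Vegfa gave opposite readings on its probe sets. The probe set used for the gene lay at 10.14, 10.38 and 11.04 at day 60, against 10.18, 12.21 and 13.36 at day 20 (lowest, median and highest), and fell (change -1.68, SE 0.42, adjusted p = 0.00541). Of the 8 day 20 arrays 7 lay above every day 60 array, array 66 being the exception. The other probe set lay at 10.95, 11.56 and 12.07 at day 60, against 10.18, 10.40 and 11.49 at day 20, and rose by 0.94 (SE 0.19, adjusted p = 0.000384). In control flank the first averaged 10.12 ± 0.51 and the second 11.81 ± 0.36 (SD, n = 8). Whether either probe set reads the transcript of the virus or that of the mouse was not tested.

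All 3 VEGF receptor kinases fell. Flt1 (VEGFR1), which binds VEGF-A tightly and can act as a decoy, lay at 9.0, 9.90 and 10.35 at day 60, against 9.98, 11.46 and 13.01 at day 20 (change -1.74, SE 0.33, adjusted p = 0.000163). Kdr, the target of DC101, lay at 10.38, 10.87 and 11.30 at day 60, against 10.60, 11.82 and 13.06 at day 20 (change -1.09, SE 0.28, adjusted p = 0.0079). In both genes day 20 array 66 lay among the day 60 values and the other 7 lay above them. Kdr was not called with the control ratios as covariates (adjusted p = 0.0624) or with adjacent arrays averaged in pairs (0.0799). Flt4 (VEGFR3), a receptor of lymphatic and sprouting endothelium, changed by -1.11 (adjusted p = 0.0409), a call lost when any 1 of 9 of the 14 arrays was left out. Vegfd, a ligand of VEGFR3, rose instead, lying at 11.58, 12.72 and 13.16 at day 60, against 10.97, 11.42 and 11.67 at day 20 (change 1.13, SE 0.25, adjusted p = 0.00171). The other 5 of 10 VEGF ligands and receptors measured were not called, with changes from -0.76 in Vegfc to 0.54 in Vegfb. Of the angiopoietin system, which acts on Tie receptors to steady vessels, only Tie1 of 6 genes was called. It lay at 8.18, 8.53 and 8.81 at day 60, against 9.08, 10.01 and 11.17 at day 20 (change -1.58, SE 0.41, adjusted p = 0.00774), with no overlap, while Angpt2, Angpt1 and Tek had changes of -0.57, 0.42 and 0.64.

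Several genes of VEGF-stimulated endothelium fell. Aplnr, the apelin receptor of growing vessels, lay at 11.65, 11.89 and 12.98 at day 60, against 13.48, 14.33 and 15.10 at day 20 (change -2.29, SE 0.32, adjusted p = 6.79e-07). The groups did not overlap. Esm1 (endocan), a proteoglycan that tip cells secrete, lay at 8.17, 9.60 and 11.48 at day 60, against 10.07, 12.50 and 13.73 at day 20 (change -2.74, SE 0.60, adjusted p = 0.00146). Among odd arrays alone Esm1 changed by -3.89 and among even arrays by -1.60, and Aplnr by -2.65 and -1.93. Fam167b was below the filter level of 331.2 signal units on all 6 day 60 arrays and lay at 5.10, 6.56 and 7.70 at day 60, against 8.0, 9.76 and 11.51 at day 20. Its level was at least 2.69-fold lower at day 60 than at day 20 (mean 6.57 at day 60 and 9.87 at day 20, adjusted p = 1.68e-05), with no overlap. The butyrophilin-like Btnl9, outside that list, lay at 9.56, 9.86 and 10.38 at day 60, against 10.83, 12.41 and 13.79 at day 20, again with no overlap (change -2.40, SE 0.38, adjusted p = 1.01e-05).

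Arterial and mural genes fell in part. Of 18 arterial and Notch genes 5 fell, Notch4, Sox17, Efnb2, Gja4 and Notch1, and Depp1 rose. Notch4, the Notch receptor of endothelium, lay at 8.82, 9.52 and 10.37 at day 60, against 10.60, 11.43 and 12.79 at day 20 (change -2.0, SE 0.40, adjusted p = 0.000447). Sox17, a transcription factor of arterial endothelium, lay at 9.90, 10.46 and 11.38 at day 60, against 11.41, 12.17 and 13.04 at day 20 (change -1.47, SE 0.31, adjusted p = 0.000773). Neither gene overlapped between the groups. Efnb2 (ephrin-B2), a surface marker of arteries, was higher on day 60 arrays 93 and 94 than on the other 4. Without those arrays 7 of the 18 fell, as did 1192 of all genes, against the 799 given above. Of 15 venous and lymphatic genes Pdpn (podoplanin, of lymphatic endothelium and fibroblasts) and Ackr1 (the chemokine-binding receptor of venules) rose, with changes of 0.92 and 0.80, and Flt4 fell, as given above. Ackr1 was not called with the control ratios as covariates (adjusted p = 0.156) or with adjacent arrays averaged in pairs (0.0615). Of 23 pericyte and smooth muscle genes 4 fell, Higd1b, Rgs5, Mcam and Notch3, and none rose. Rgs5, a pericyte regulator of G protein signalling, lay at 13.54, 13.74 and 14.17 at day 60, against 13.85, 15.25 and 15.90 at day 20 (change -1.33, SE 0.29, adjusted p = 0.00117). The contractile genes Acta2 and Myh11 had changes of -0.26 and -0.06 and were not called. Among 15 basement membrane genes the collagen IV chains Col4a1 (-0.99) and Col4a2 (-1.13) fell, as did Sparc (-0.58), a collagen-binding matrix protein. None of these 3 was called with adjacent arrays averaged in pairs.

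**Figure D1:**
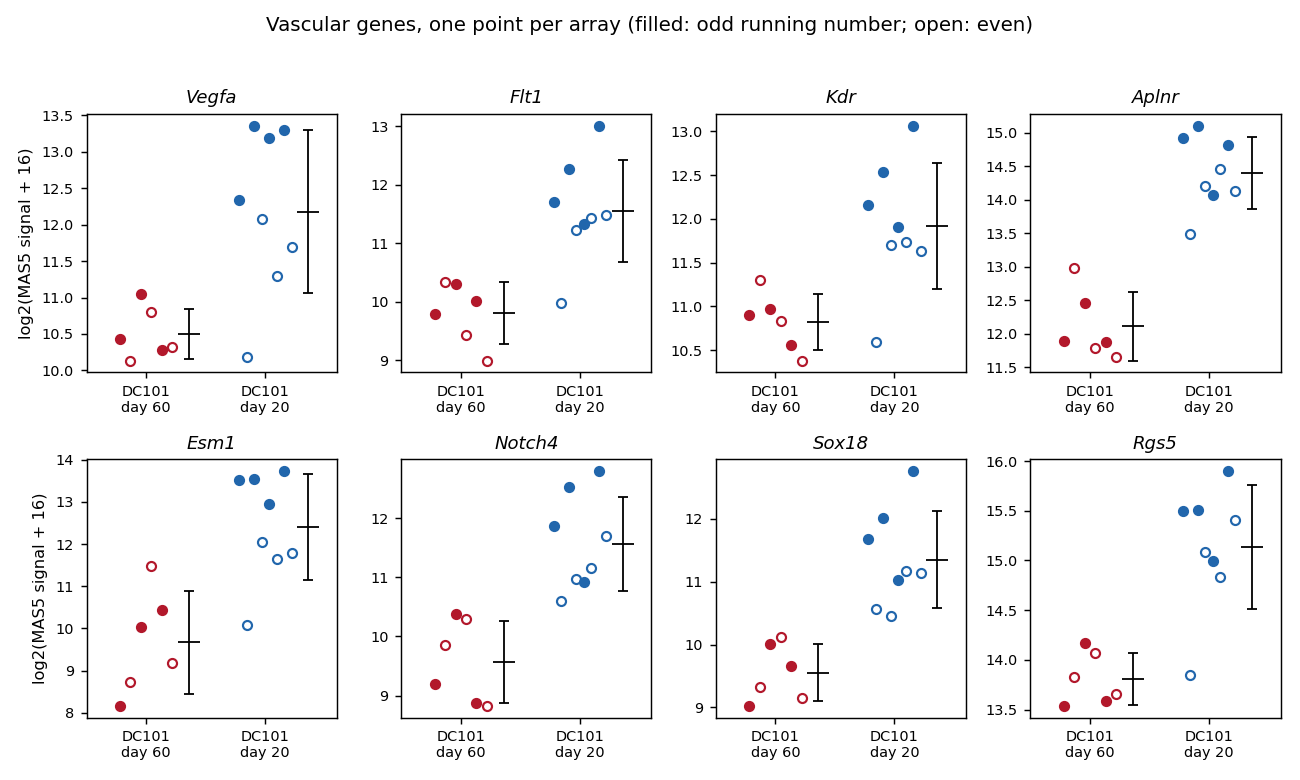
log2(MAS5 signal + 16) of 8 vascular genes on the 6 DC101 day 60 arrays (left) and the 8 DC101 day 20 arrays (right), with filled points for odd and open points for even running numbers and bars for the mean ± SD. The groups do not overlap in Aplnr, Notch4 and Sox18, and the day 20 values are more spread than the day 60 values in Vegfa and Kdr.

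The pan-endothelial changes differed in part between DC101 and untreated Ad-VEGF-A164 mice. The list's median change untreated was -2.06 between day 60 and day 20, where 25.7% of all genes were called (11.9% higher and 13.7% lower). The DC101 change was higher than the untreated change in 21 of 36 and lower in none (median difference 1.035), where 18.2% of all genes differed (8.9% higher and 9.29% lower). The difference was 1.66 (adjusted p = 0.00443) for Cdh5. For Notch4, of the arterial list, it was 1.49 (adjusted p = 0.0454), with an adjusted p of 0.445 with the control ratios as covariates and of 0.177 without untreated day 20 arrays 51 and 52, which stood apart from the other 6. With the ratios 0 of the 36 differed (634 of all genes), with a median difference of 0.74, and without arrays 51 and 52 8 did (1493 of all genes). The Actb ratio moved the other way untreated, running from 1.58 to 2.57 at untreated day 60, against 1.32 to 1.68 at untreated day 20. The list's mean level was 10.85 ± 0.28 with DC101 at day 60 (SD, n = 6) and 11.61 ± 0.52 with DC101 at day 20 (n = 8). It was 10.55 ± 0.54 untreated at day 60 and 12.39 ± 0.61 untreated at day 20, and 10.72 ± 0.22 in control flank (n = 8 each).

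Some genes that respond within hours to hormones and stress rose. Of 15 genes known to be induced by glucocorticoids 6 rose, Errfi1, Dusp1, Pdk4, Per1, Zbtb16 and Klf9, and none fell (median change 0.48). Errfi1, a feedback inhibitor of the EGF receptor, lay at 14.21, 15.42 and 15.75 at day 60, against 12.59, 12.98 and 13.24 at day 20 (change 2.18, SE 0.24, adjusted p = 1.15e-09). Dusp1, a phosphatase that turns off MAP kinases, lay at 13.18, 14.10 and 15.07 at day 60, against 11.39, 12.09 and 12.76 at day 20 (change 1.87, SE 0.27, adjusted p = 1.79e-06). Neither overlapped between the groups. Pdk4, which turns down glucose oxidation, lay at 12.90, 13.49 and 14.52 at day 60, against 10.38, 11.61 and 15.13 at day 20, with its highest value on the muscle-rich day 20 array 72 and a call lost without any 1 of 8 arrays. With the control ratios as covariates 3 of the 15 rose, and without day 20 arrays 68 and 72 8 did. Of all genes 161 and 1139 rose under these settings, against the 581 given above.

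Several genes outside that list moved in the same direction. Fosb, a subunit of the transcription factor AP-1, lay at 9.35, 10.52 and 11.30 at day 60, against 7.96, 8.33 and 8.58 at day 20, with no overlap (change 2.04, SE 0.34, adjusted p = 2.42e-05). Depp1, a target of FOXO transcription factors, lay at 11.82, 12.62 and 12.82 at day 60, against 9.03, 10.14 and 11.04 at day 20, with no overlap (change 2.44, SE 0.27, adjusted p = 7.4e-10). Ddit4, an inhibitor of mTORC1 induced by hypoxia and glucocorticoids, was the one riser among 22 hypoxia and glycolysis genes (change 1.28, SE 0.20, adjusted p = 7.65e-06). Without day 20 arrays 68 and 72, 7 of the 22 rose, as did 1139 of all genes. Fos (1.40, adjusted p = 0.00958) and Cebpd, an acute-phase transcription factor (1.59, adjusted p = 9.45e-06), were picked after their values were seen. Cebpd was at 12.35 and 12.84 on day 60 arrays 93 and 94 and at or above 13.81 on the other 4, against 11.72 to 12.61 at day 20.

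Clock genes moved in both directions. The mammalian clock is a loop in which the activators BMAL1 (Arntl) and CLOCK or NPAS2 switch on the Period and Cryptochrome genes, whose products then repress them. Of 17 clock genes 4 rose, Per1, Nr1d1, Npas2 and Arntl, and 4 fell, Per2, Dbp, Cry1 and Tef. Per1, a repressor in the loop that glucocorticoids also induce, lay at 11.75, 11.86 and 12.06 at day 60, against 10.29, 10.66 and 10.90 at day 20 (change 1.26, SE 0.15, adjusted p = 9.02e-09). Per2, its paralogue, lay at 8.48, 8.87 and 9.20 at day 60, against 9.70, 10.09 and 10.65 at day 20 (change -1.24, SE 0.18, adjusted p = 1.02e-06). Neither overlapped between the groups, so the 2 Period genes separated them in opposite directions. Dbp, a transcription factor driven by the clock, lay at 10.95, 11.11 and 11.51 at day 60, against 11.58, 11.84 and 12.88 at day 20, with no overlap (change -0.93, SE 0.22, adjusted p = 0.00352). Arntl lay at 10.65, 10.83 and 11.04 at day 60, against 9.90, 10.19 and 10.67 at day 20 (change 0.62, SE 0.11, adjusted p = 9.49e-05), and Cry1, a repressor, at 9.67, 10.13 and 10.75 at day 60, against 10.15, 10.81 and 11.40 at day 20 (change -0.65, SE 0.19, adjusted p = 0.0172). Per3 did not overlap between the groups but was not called (change -0.43, SE 0.16, adjusted p = 0.069). With adjacent arrays averaged in pairs 2 clock genes rose and 1 fell, where 182 of all genes rose and 287 fell.

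The smallest adjusted p of all genes was that of Cirbp, a cold-inducible RNA-binding protein picked after its values were seen. It lay at 12.34, 12.59 and 12.71 at day 60, against 10.75, 10.88 and 11.42 at day 20, with no overlap (change 1.6, SE 0.15, adjusted p = 1.14e-11). Its change was 1.74 among odd and 1.46 among even arrays, and that of Per1 1.32 and 1.21. The labels used here give no time of day of tissue collection, so its part in these values was not tested.

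The start regions of Per1, Cry1, Dusp1 and Errfi1 are shown because they hold motifs through which clock and cyclic AMP signals act. Each window runs from 250 bases before to 50 bases after an annotated start and is written 5′ to 3′ along the gene, from RefSeq, build GRCm38.p6. Capitals mark the E-box CACGTG, bound by the clock's activators, and the cyclic AMP response element TGACGTCA, which read the same on both strands and do not overlap each other here. The window shown is the gene's first by position that holds the E-box, for Per1 and Cry1, or the cyclic AMP response element, for Dusp1 and Errfi1. Per1 is at chr11:69098699-69098998 on the plus strand, Cry1 at chr10:85185005-85185304 on the minus strand, Dusp1 at chr17:26508423-26508722 on the minus strand and Errfi1 at chr4:150854820-150855119 on the plus strand.

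Per1: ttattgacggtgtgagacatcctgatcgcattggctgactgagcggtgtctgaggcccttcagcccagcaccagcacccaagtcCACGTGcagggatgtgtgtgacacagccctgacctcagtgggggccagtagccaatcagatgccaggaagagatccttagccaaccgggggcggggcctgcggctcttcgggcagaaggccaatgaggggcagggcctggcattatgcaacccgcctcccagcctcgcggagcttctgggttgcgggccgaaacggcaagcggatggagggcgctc

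Cry1: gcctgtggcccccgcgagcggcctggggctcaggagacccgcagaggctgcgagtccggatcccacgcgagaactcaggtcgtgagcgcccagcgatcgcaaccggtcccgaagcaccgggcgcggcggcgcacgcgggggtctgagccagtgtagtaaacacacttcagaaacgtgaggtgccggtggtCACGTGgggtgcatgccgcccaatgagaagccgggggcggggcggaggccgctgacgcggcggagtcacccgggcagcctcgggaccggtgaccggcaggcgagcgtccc

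Dusp1: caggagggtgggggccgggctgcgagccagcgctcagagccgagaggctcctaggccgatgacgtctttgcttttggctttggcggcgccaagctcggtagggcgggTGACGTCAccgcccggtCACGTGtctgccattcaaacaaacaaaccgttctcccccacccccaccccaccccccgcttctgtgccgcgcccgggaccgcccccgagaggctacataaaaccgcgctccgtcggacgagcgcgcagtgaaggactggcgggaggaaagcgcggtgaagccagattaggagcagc

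Errfi1: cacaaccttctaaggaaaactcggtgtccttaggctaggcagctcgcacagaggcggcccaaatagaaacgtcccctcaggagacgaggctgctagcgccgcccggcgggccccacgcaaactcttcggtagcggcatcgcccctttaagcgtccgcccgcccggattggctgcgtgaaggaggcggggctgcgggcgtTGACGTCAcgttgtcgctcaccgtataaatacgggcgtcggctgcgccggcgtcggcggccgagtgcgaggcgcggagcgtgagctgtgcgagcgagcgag

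In the windows shown, Per1, which rose, and Cry1, which fell, hold 1 E-box each. Dusp1 holds 1 E-box and 1 cyclic AMP response element, and Errfi1 holds 1 cyclic AMP response element. Of the 8 clock genes called, 7 had a window, and Per1, Cry1 and Tef held an E-box in at least 1 of theirs. Of all 32851 mouse windows 7.15% held one. That share is counted by window, so a gene with several windows has more chances than it gives. None of the 7 held a cyclic AMP response element. Of the 6 glucocorticoid-inducible genes called, 5 had a window, and Dusp1 and Errfi1 held a cyclic AMP response element in at least 1 of theirs. Of all windows, again counted singly, 1.79% held one. Of these 5 genes, Per1 and Dusp1 held an E-box in at least 1 window. A match describes the letters of the window and shows no binding.

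**Figure D2:**
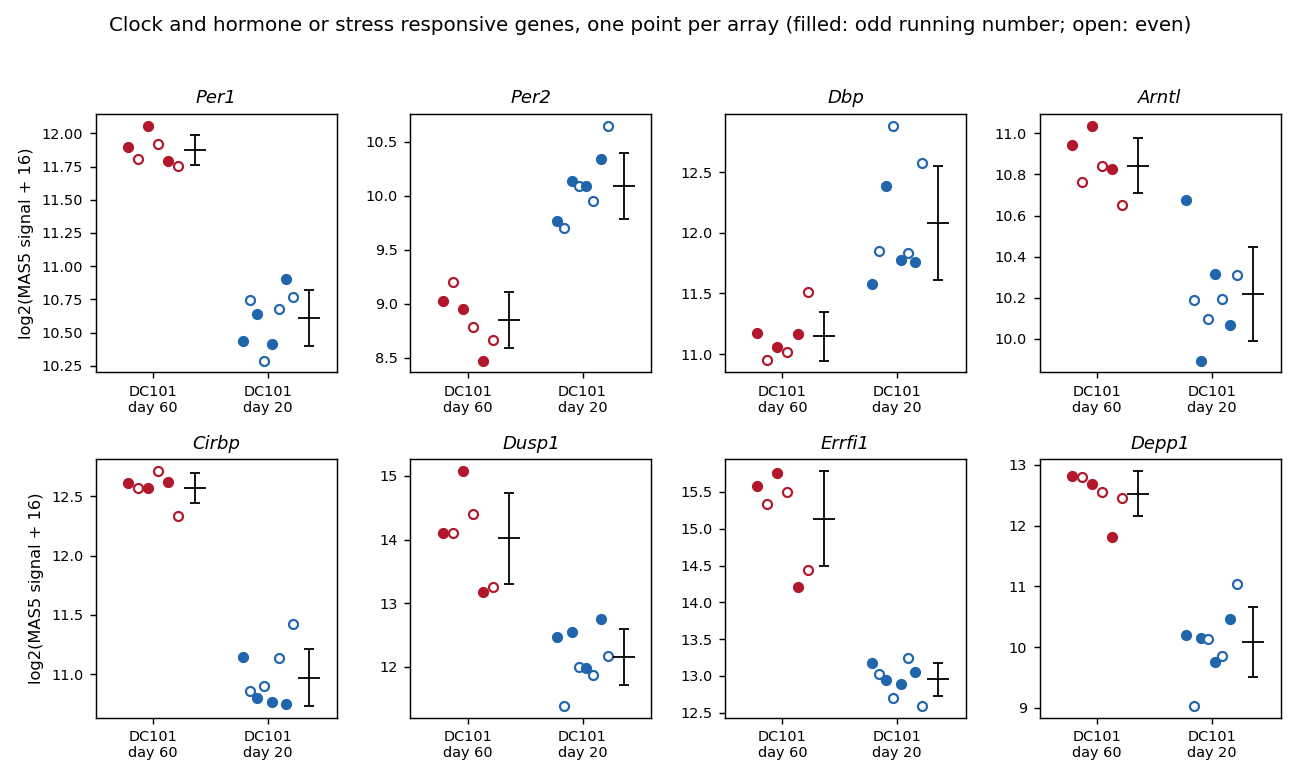
log2(MAS5 signal + 16) of Per1, Per2, Dbp, Arntl, Cirbp, Dusp1, Errfi1 and Depp1 on the 6 DC101 day 60 arrays (left) and the 8 DC101 day 20 arrays (right), with filled points for odd and open points for even running numbers and bars for the mean ± SD. Per1, Cirbp, Dusp1, Errfi1 and Depp1 are higher and Per2 and Dbp lower on every day 60 array, and Arntl overlaps by little.

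The changes of some of these genes differed from the untreated ones. The DC101 change exceeded the untreated change by 1.66 (adjusted p = 6.15e-08) in Per1, by 3.21 (adjusted p = 6.09e-09) in Depp1 and by 1.58 (adjusted p = 1.81e-07) in Cirbp. With the control ratios as covariates the adjusted p was 3.52e-05 for Per1 and 5.82e-05 for Depp1. In the glucocorticoid list 8 of 15 genes had a higher change with DC101, 4 with the control ratios as covariates and 6 without untreated day 20 arrays 51 and 52. Of all genes 1310 had a higher change, and 285 and 748 did under those settings. Per2 changed by -1.24 with DC101 and by -1.44 untreated, a difference of 0.20 (adjusted p = 0.603). Of the 17 clock genes 4 had a higher change with DC101 and none a lower one, and Dbp, with a difference of 0.72 (adjusted p = 0.0877), Arntl, with -0.07 (adjusted p = 0.778), and Cry1, with -0.64 (adjusted p = 0.0686), did not pass. At DC101 day 5 Cirbp averaged 12.46 ± 0.22 and Depp1 12.77 ± 0.48 (SD, n = 8). At day 20 they averaged 10.97 and 10.08, and at day 60 12.57 and 12.52, so that day 20 held the lowest of the 3 DC101 means in both genes. Cirbp averaged 10.85 untreated at day 60, 10.83 untreated at day 20 and 11.19 in control flank, all below its DC101 day 5 and day 60 means. DC101 day 20 also held the highest median Actb ratio of the 3, 1.735, against 1.288 at DC101 day 5 and 1.302 at DC101 day 60. The median ratio was 1.877 untreated at day 60, 1.419 untreated at day 20 and 1.309 in control flank. The part of the ratio in these means was not tested.

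Proteases of tissue remodelling moved one by one. Of 20 metalloproteinases and other proteases, Mmp9, Adamts5, Plat and Mmp14 rose and Mmp12 fell. Mmp9, a gelatinase, lay at 10.28, 11.12 and 11.75 at day 60, against 8.03, 8.75 and 9.39 at day 20, with no overlap (change 2.31, SE 0.28, adjusted p = 1.22e-08). Mmp12, the elastase of macrophages, lay at 4.88, 8.08 and 9.15 at day 60, against 8.94, 9.92 and 10.78 at day 20 (change -2.45, SE 0.57, adjusted p = 0.00278), and was not called with the control ratios as covariates (adjusted p = 0.0625). Adamts5, which cleaves aggrecan, did not overlap between the groups (change 1.05, SE 0.19, adjusted p = 8.06e-05). Prtn3, a serine protease of neutrophil granules, was below the filter level on all 8 day 20 arrays and at least 1.6-fold higher at day 60 (mean 9.12 at day 60 and 6.60 at day 20, adjusted p = 0.000225). The neutrophil genes S100a8 and S100a9, which keratinocytes also express, had changes of -0.89 and -0.78 and were not called. Of 22 neutrophil and acute inflammation genes 1 fell, the lectin Clec4d (-1.07), and none rose.

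Macrophage genes leaned upward. Of 25 macrophage and monocyte genes 5 rose, Trem2, Cd163, Cd14, Folr2 and Mrc1, none fell, and 21 had a positive change (median 0.35). Cd163, the haemoglobin scavenger receptor of resident macrophages, lay at 13.22, 13.59 and 13.99 at day 60, against 11.45, 12.41 and 13.10 at day 20, with no overlap (change 1.18, SE 0.31, adjusted p = 0.00848). Adgre1 (F4/80) and Csf1r, markers of most macrophages, were not called, with changes of 0.18 and 0.35. With the control ratios as covariates 1 of the 25 rose, with adjacent arrays averaged in pairs 0 did, and without day 60 arrays 93 and 94 11 did. Of all genes 161, 182 and 1133 rose under these settings, against the 581 given above. Arrays 93 and 94 had the lowest list levels at day 60, 11.94 and 12.12, against 12.74 to 13.15 on the other 4 day 60 arrays and 11.41 to 12.82 at day 20.

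Chemokines and other immune genes changed singly. Cxcl13, which attracts B cells, lay at 13.05, 14.09 and 14.96 at day 60, against 10.01, 11.998 and 13.44 at day 20 (change 2.06, SE 0.56, adjusted p = 0.0111). Cxcl9, which attracts T cells through the receptor CXCR3, lay at 5.29, 6.26 and 8.25 at day 60, against 7.93, 10.02 and 11.72 at day 20. All 6 day 60 arrays were below the filter level, so that Cxcl9 was at least 3.04-fold lower at day 60 than at day 20 (adjusted p = 0.000371). Cxcl10, a related CXCR3 ligand, fell too (change -1.53, SE 0.40, adjusted p = 0.00826). These were the falls among 19 interferon-stimulated genes, of which Oasl1 rose (0.73). Of 14 genes of MHC class II and dendritic cells, Itgax (CD11c) and Zbtb46, a factor of conventional dendritic cells, fell, with changes of -1.08 and -0.99 and no overlap. Ptx3, a soluble pattern recognition protein, lay at 10.55, 11.83 and 13.35 at day 60, against 9.24, 9.98 and 10.61 at day 20 (change 1.83, SE 0.29, adjusted p = 9.45e-06). Cd209g, a lectin of the DC-SIGN family, rose (change 2.10, SE 0.55, adjusted p = 0.00775). Cxcl13, Cxcl10, Cd209g and Oasl1 were not called with the control ratios as covariates (adjusted p from 0.0652 to 0.104) or with adjacent arrays averaged in pairs (0.0506 to 0.122). Oasl1 also lost its call without any 1 of 7 arrays. None of 10 T cell or 10 mast cell genes was called.

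Dermal matrix genes were mixed. Mfap4, a protein of elastic microfibrils, lay at 5.52, 6.45 and 8.08 at day 60, against 7.56, 11.42 and 13.33 at day 20. All 6 day 60 arrays were below the filter level, which puts its level at least 4.99-fold lower at day 60 than at day 20 (adjusted p = 0.00193). The day 20 arrays were widely spread. Hapln1, which links hyaluronan to proteoglycans, was at least 1.35-fold lower at day 60 than at day 20 (adjusted p = 0.00409). Col1a1, the main chain of collagen I, lay at 12.48, 13.65 and 14.13 at day 60, against 13.03, 14.45 and 14.70 at day 20 (change -0.88, SE 0.26, adjusted p = 0.0232), and lost its call without day 60 array 93 or 94. Fbln1, a fibulin, rose (change 1.12, SE 0.26, adjusted p = 0.00304). With Mfap4 and Col1a1, which fell, it made up the 3 calls among 21 genes of resting dermis. Fbln1 was not called with the control ratios as covariates (adjusted p = 0.168), and neither Fbln1 (0.0548) nor Col1a1 (0.087) with adjacent arrays averaged in pairs. Of 20 wound matrix genes Cthrc1 (-1.41) and Tnc, tenascin C (-1.05), fell and none rose.

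**Figure D3:**
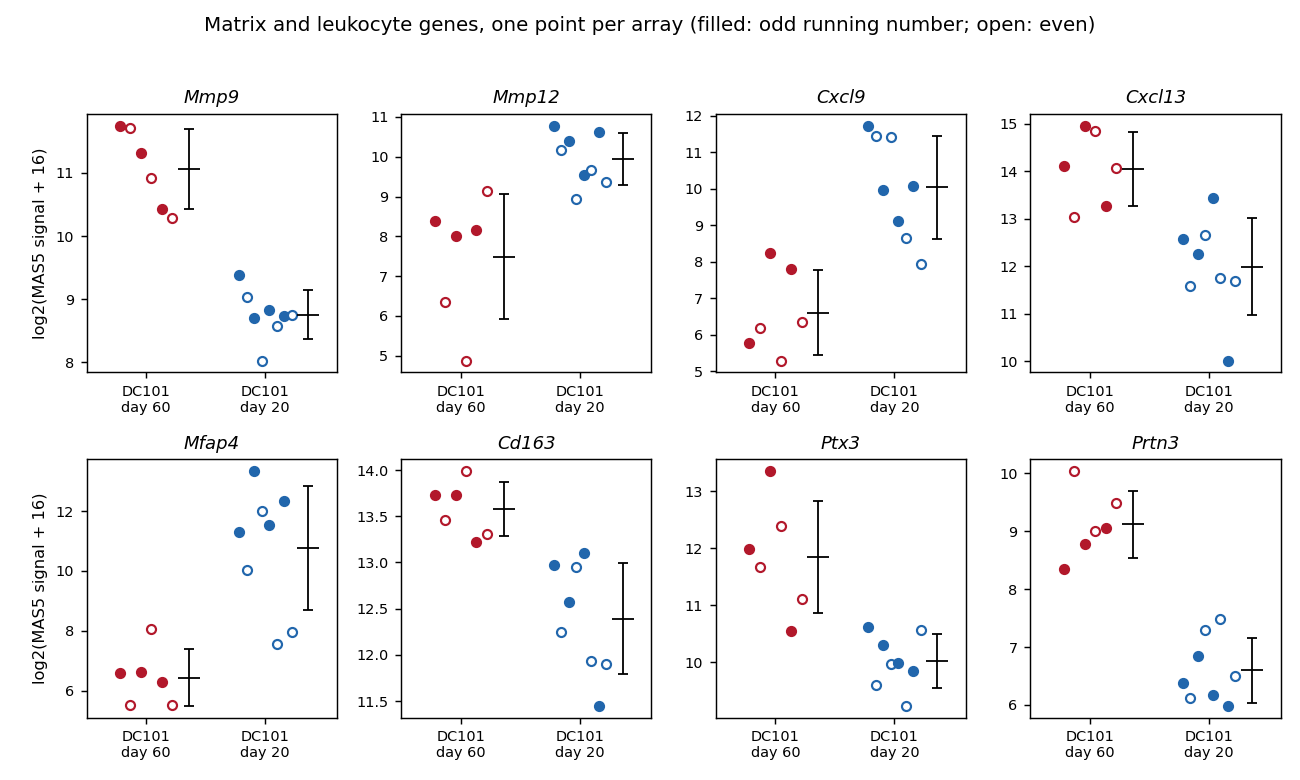
log2(MAS5 signal + 16) of Mmp9, Mmp12, Cxcl9, Cxcl13, Mfap4, Cd163, Ptx3 and Prtn3 on the 6 DC101 day 60 arrays (left) and the 8 DC101 day 20 arrays (right), with filled points for odd and open points for even running numbers and bars for the mean ± SD. Mmp9, Cd163 and Prtn3 are higher on every day 60 array, and Mfap4 is spread from 7.56 to 13.33 at day 20.

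Cell cycle genes were lower in part. Of 29 measured 6 fell, Tyms, Mki67, Cdc20, Mcm5, Prc1 and Plk1, none rose, and 28 had a negative change (median -0.58). Mki67, the proliferation marker Ki-67, lay at 9.67, 10.33 and 11.84 at day 60, against 10.35, 11.76 and 13.36 at day 20 (change -1.24, SE 0.38, adjusted p = 0.0279), and lost its call without any 1 of 7 arrays. Cdc20, an activator of the anaphase-promoting complex, lay at 9.61, 10.58 and 11.50 at day 60, against 10.85, 11.54 and 12.56 at day 20 (change -1.05, SE 0.30, adjusted p = 0.0172). Tyms, which makes thymidylate for DNA synthesis, lay below the filter level (8.44 on this scale) on all 14 arrays, so no fold is given for it. The count ran from 1 to 11 as each of the 14 arrays was left out. It was 17 without day 20 arrays 68 and 72, 14 without day 60 arrays 93 and 94, and 1 with the control ratios as covariates or with adjacent arrays averaged in pairs. Of all genes 1264, 1192, 292 and 287 fell under these settings, against the 799 given above. The list's day 60 levels were highest on arrays 93, 94 and 89 (10.32, 10.08 and 9.84), which also had the highest levels of the epidermal list (13.90, 13.18 and 13.41). Its day 20 levels were lowest on arrays 72 and 68 (9.36 and 9.51), which had the lowest epidermal levels (11.90 and 12.51).

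No member was called in the lists of skeletal muscle (26 genes), respiratory chain (27), adipocyte (19), hair follicle (27), activated keratinocyte (23), sebaceous gland (15), mammary gland (12), Schwann cell (11) and erythroid genes (4). In basal and suprabasal epidermis 1 of 25 was called, the hemidesmosome integrin Itgb4 (0.59), and 1 of 11 B cell and plasma cell genes, Ighm. Some of these lists still leaned. All 27 hair follicle, 24 of 25 basal and suprabasal and 20 of 23 activated keratinocyte genes had a negative change (medians -0.62, -0.44 and -0.62). A positive change was found in 23 of 26 muscle, 21 of 27 respiratory chain and 15 of 19 adipocyte genes (medians 0.57, 0.19 and 0.31), and in 48.3% of all genes. The level of the muscle list lay at 14.47, 15.11 and 15.34 at day 60, against 13.02, 14.17 and 16.14 at day 20, where arrays 68 and 72 were at 16.02 and 16.14 and the other 6 at or below 14.39. Without those arrays 10 of 26 muscle and 10 of 27 respiratory chain genes rose, as did 1139 of all genes, against the 581 given above. Krt14, the keratin of basal keratinocytes, lay at 12.82, 14.59 and 15.49 at day 60, against 14.04, 15.34 and 15.92 at day 20 and was not called (change -0.93, SE 0.42, adjusted p = 0.153), nor was Pecam1 (CD31), an endothelial adhesion molecule (change -0.91, SE 0.34, adjusted p = 0.0727).

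**Figure D4:**
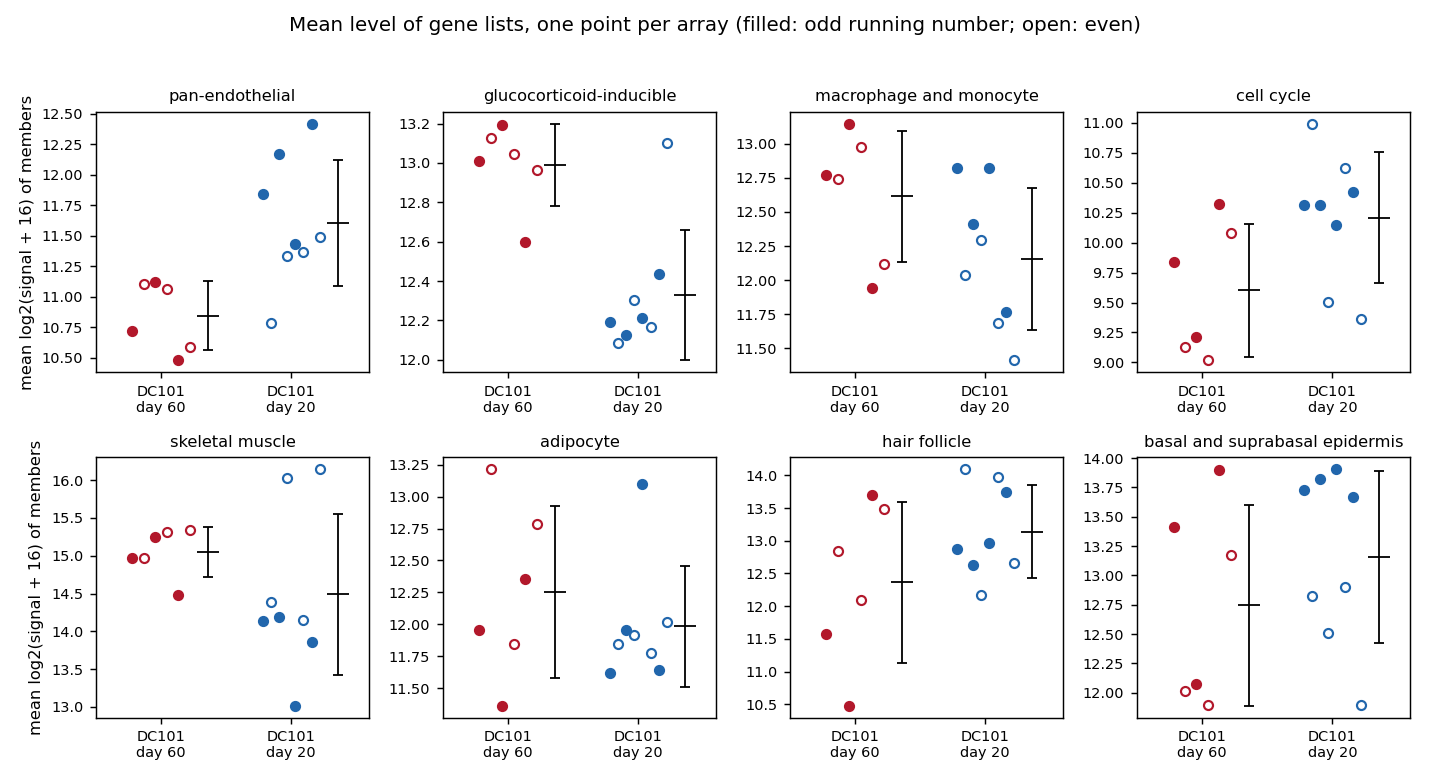
Mean log2(MAS5 signal + 16) of the members of 8 gene lists on the 6 DC101 day 60 arrays (left) and the 8 DC101 day 20 arrays (right), with filled points for odd and open points for even running numbers and bars for the mean ± SD. In skeletal muscle the day 20 arrays 68 and 72 stand at 16.02 and 16.14, above all others.

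Some hair follicle genes differed from the untreated course. The hair follicle list had a median change of -0.62 with DC101 and 1.95 untreated, and the change was lower with DC101 in 9 of 27 members (median difference -2.69). None differed with the control ratios as covariates (median difference -2.7) or without untreated day 20 arrays 51 and 52 (-1.24). The change was lower with DC101 in 6 of 25 genes of basal and suprabasal epidermis and 4 of 23 of activated keratinocytes, and in none of either with the ratios. Against the course with G6, a contrast that shares the DC101 arrays with the untreated one, 20.9% of all genes differed (12.5% higher and 8.39% lower). There 11 of 26 muscle and 11 of 21 resting dermal genes were higher with DC101, and with the control ratios as covariates 2 genes of all 14718 were called. The Actb ratio ran from 1.81 to 3.03 at G6 day 60, above every DC101 day 60 array.

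**Figure D5:**
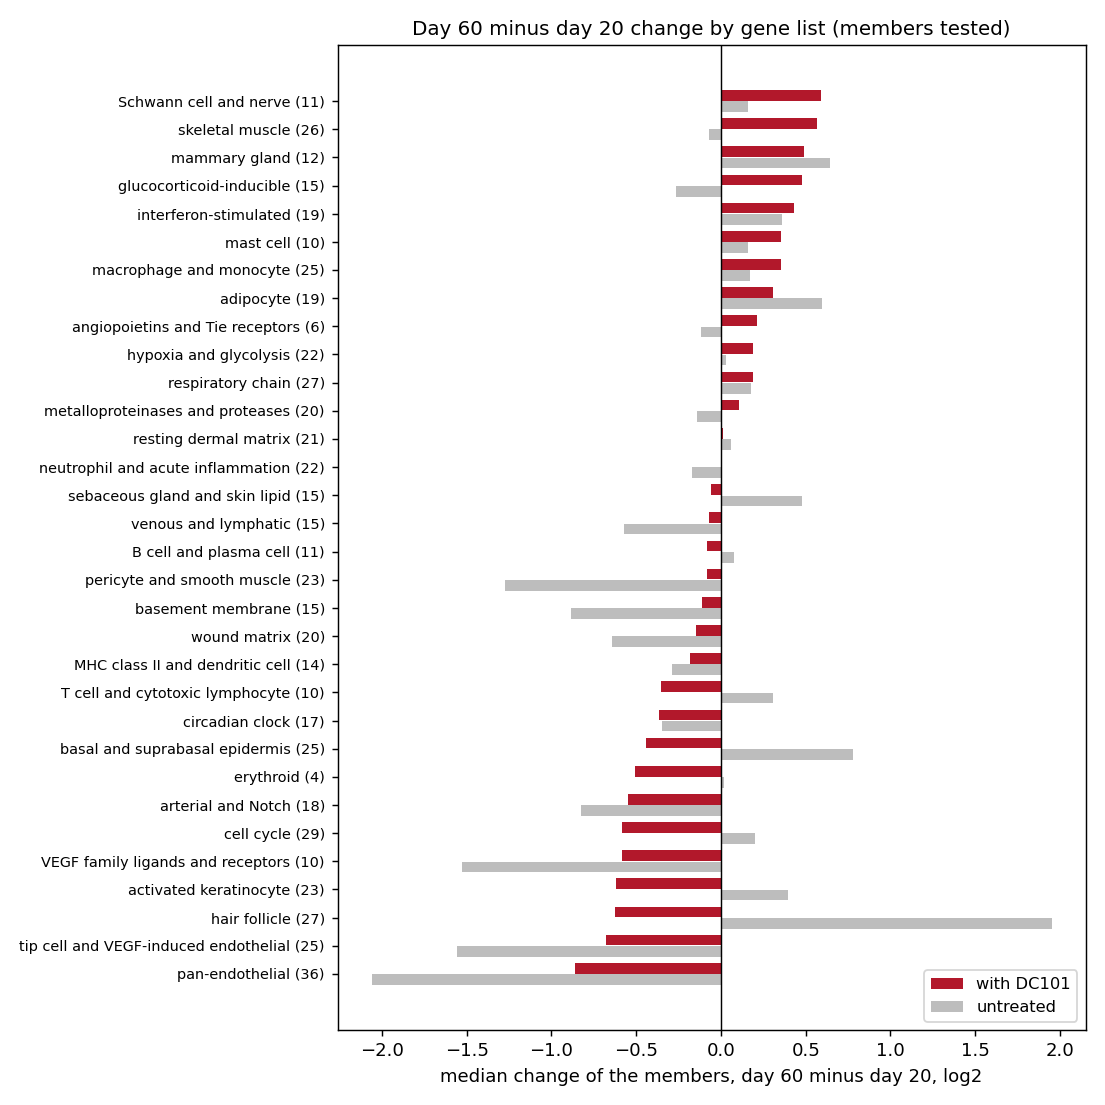
Median log2 change of the members of each gene list, day 60 minus day 20, with DC101 (above) and untreated (below). The pan-endothelial list has medians of -0.86 with DC101 and -2.06 untreated, and the hair follicle list -0.62 with DC101 and 1.95 untreated.

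Among the other rises were Slc4a10, a bicarbonate transporter (change 2.26, SE 0.56, adjusted p = 0.00481), Rtn1, a reticulon of the endoplasmic reticulum (change 2.19, SE 0.47, adjusted p = 0.00126), and Spon1, the secreted F-spondin (change 2.07, SE 0.56, adjusted p = 0.0111). Osr2 and Tcf24, transcription factors, had changes of 1.81 and 1.76, and Rap1gap, which turns off Rap1, of 1.67. Osr2 lost its call without any 1 of 4 arrays and Rap1gap without any 1 of 6. With the control ratios as covariates Slc4a10 (adjusted p = 0.0732), Spon1 (0.0524), Osr2 (0.482) and Rap1gap (0.431) were not called, nor was Spon1 with adjacent arrays averaged in pairs (0.142) or with only both groups in the fit (0.0987). Among the other falls were Ccdc25 (-2.52) and the kinesin Kif26a, at least 1.48-fold lower at day 60 than at day 20 with no overlap and not called with the ratios (adjusted p = 0.109). Doxl1 fell too (adjusted p = 0.00126), with all 6 day 60 arrays and the day 20 mean below the filter level, so no fold is given. Trim12c, of the tripartite motif family, fell (change -2.97, SE 0.56, adjusted p = 0.000191) but was split at day 60, at 10.89 and 11.11 on arrays 91 and 92 and from 6.01 to 7.50 on the other 4, against 10.26 to 11.84 at day 20.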

How the data were processed

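Each sample's flank RNA was hybridised to an Affymetrix GeneChip of the mouse genome. The deposited values are MAS5 signal intensities on a linear scale, made with GCOS 1.3 per the submitters' processing notes. Their mean after trimming 2% at each end is 1500.01 on every array. Arrays give no counting depth, and their number limits the precision.

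Of 45101 probe sets, 34958 had 1 gene symbol, 932 several and 9211 none in the platform's annotation. Only the first were named. Probe sets above 331.2 (the 40th percentile) on at least 6 arrays were kept, and the brightest stood for its gene, leaving 14718 genes. Where all arrays of the dimmer group lay below 331.2, the fold is a lower limit, taken from that level to the mean of the brighter group. limma 3.58.1 (R 4.3.3) was fitted on log2(signal + 16) with the 10 groups as coefficients (eBayes, trend on mean intensity), two-sided tests and Benjamini-Hochberg adjustment over all genes. The fit was tested on simulated data with noise drawn independently for each gene and array. There it called 29 of 100 changes of 0.5 and 75 of 100 changes of 1 on the log2 scale. Of 110 calls 6 were of unchanged genes. Arrays that share a mouse and differences in RNA quality were not simulated. Arrays are called by the running numbers in their titles. No number is shared between groups, so the numbers pair no samples across groups, and whether neighbouring numbers share a source is not given.

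The members, the 32 gene lists (592 entries tested) and the named genes were chosen with earlier results of these data known. Named genes are, among those called, the 15 that rose most and the 15 that fell most, the 3 largest in each list with at least 3 called, the 6 largest each way in each difference between changes, and Vegfa, Flt1, Kdr, Pecam1, Cdh5, Esm1, Krt14 and Col1a1, passing over clone and predicted genes. Other genes given with values are list members, or are marked as picked after their values were seen. Alternatives were quantile normalization, pseudocounts of 1 and 64, averaging each gene's probe sets, each other probe set, no filter, array weights, only both groups in the fit, the control ratios as covariates, adjacent arrays averaged, a 2-fold minimum and leaving out arrays. Those on arrays 51 and 52, 68 and 72, 93 and 94 and on odd or even numbers were added after the data were seen.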

Additional observations from a re-analysis of the deposited data

Results flagged for a closer look

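Among 164 gene-by-group sets of arrays and 64 list-by-group sets, 5 and 2 held an array set far apart from the others, where chance gives about 1 in 20. Day 60 array 93 was low in Depp1 (11.82), Fhod1 (5.76), Ryr1 (13.64) and Trim54 (9.87). Day 20 array 72 was low in Col1a1 (13.03) and high in the glucocorticoid-inducible list (13.1), and day 20 array 69 was high in the adipocyte list (13.1).

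The test of the difference between the DC101 change and the untreated change passed for 39 named genes. It was above 0 for Depp1 (3.21), Dusp1 (2.32), Fosb (1.97), Errfi1 (1.79), Per1 (1.65), Mmp9 (1.78), Ptx3 (1.51), Vegfd (1.28), Cd14 (1.02) and Adamts5 (0.71). So it was for the vascular genes Ushbp1 (1.87), Cdh5 (1.66), Notch4 (1.49), Mcam (1.38), Sox17 (1.38) and Col4a2 (1.27), which fell less with DC101 than untreated. It was also above 0 for Fhod1 (3.29), Hcls1 (2.78), Rbmxl2 (2.75), Hdc (2.69), B4galnt1 (2.6), Ryr1 (2.42) and Rap1gap (2.1). It was below 0 for the hair and epidermal genes Krt33a (-4.6), Krtap15 (-4.6), Krtap7-1 (-4.53), Krtap8-1 (-4.38), Lce3a (-2.77), Lce3c (-2.51) and Krt14 (-1.93), and for the metallothionein Mt4 (-4.53). It was below 0 too for Idi2 (-6.11), Cxcl9 (-3.93), Trim12c (-3.66), Lyg1 (-3.35), Ccdc25 (-2.04), Mki67 (-1.73), Tyms (-1.5, below the filter level on all 14 DC101 arrays) and Cdc20 (-1.29). With the control ratios as covariates only Depp1, Per1, Errfi1, Dusp1, Hdc, Rbmxl2, B4galnt1 and Trim12c of these 39 passed. The vascular genes then had adjusted p from 0.0926 to 0.558. Without untreated day 20 arrays 51 and 52 only Cdh5 of the vascular genes passed (adjusted p = 0.0353). None of the genes named as hair and epidermal did, but Mt4, named beside them, still passed (adjusted p = 0.0216).

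Against the G6 change, the difference was above 0 for Hcls1 (3.66), Myoz3 (3.44), Ryr1 (3.36), Trim54 (3.34), Lmod3 (3.26) and Rbmxl2 (3.26). It was below 0 for Lce3a (-3.03), Lce3c (-2.94), Lyg1 (-2.91), Mt4 (-2.83), Crisp3 (-2.69) and Ccdc25 (-2.55). With the control ratios as covariates only 2 of all genes passed this test.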

How the results depend on the processing

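The count of genes called, 1380, was within 1.5 times under quantile normalization, pseudocounts of 1 and 64, averaging each gene's probe sets, no filter and a term for odd or even numbers (1256 to 1435). It was 4349 with array weights, 654 with only both groups in the fit, 453 with the control ratios as covariates, 469 with adjacent arrays averaged, 287 at 2-fold or more, 2403 without day 20 arrays 68 and 72 and 2325 without day 60 arrays 93 and 94. Leaving out 1 array gave 808 (without day 60 array 91) to 1947 (without 93). It was 897 without array 89 and 870 without array 92. The 2678 genes whose change differed from the untreated one became 4964 with array weights, 634 with the ratios, 1219 with averaged arrays, 818 at 2-fold or more and 1493 without untreated arrays 51 and 52, and ran from 1955 to 3349 as 1 array was left out. The 3078 that differed from the G6 change became 5787, 2, 1775 and 1032 under the first 4 of these, and ran from 2257 to 3915. The causes were not tested.

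Of 62 named genes called, 41 stayed called with the ratios, 36 with averaged arrays, 49 with only both groups and 48 without each of the 14 arrays. Of 2253 values of named genes under alternatives 14 turned sign, 9 of them in genes called in neither setting (B4galnt1, Fhod1, Lmod3, Myoz3 and Trim54). The 5 in called genes were all on another probe set: Vegfa (0.945), Trim12c (0.36), Cdh5 (0.089), Sparc (0.048) and Fbln1 (-0.155). No paired analysis was possible because the groups share no replicate numbers.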

Other observations

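Some families outside the lists were looked at after their values were seen. Of 8 GIMAP genes, GTPases of lymphocytes and endothelium, 6 fell with DC101 (median change -1.15), where 5.43% of all genes fell. With the control ratios as covariates 6 fell, as did 292 of all genes. Untreated, the median change of the GIMAP genes was -1.72. The DC101 change differed from the untreated change in 0 of the 8, where 18.2% of all genes differed. Of 48 ribosomal protein genes 4 fell and none rose with DC101 (median -0.16). Untreated, 39 rose (median 0.52), where 11.9% of all genes rose. The DC101 change was lower than the untreated change in 36 of them, in 31 with the control ratios as covariates and in 36 without untreated day 20 arrays 51 and 52. Of 35 hair keratin-associated protein genes 15 had a lower change with DC101 than untreated, 0 with the control ratios as covariates and 1 without those arrays. Of all genes 1368 had a lower change with DC101 than untreated, 349 with those ratios and 745 without those arrays.

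Over all groups Krt10 was higher on the odd array than on its even neighbour in 35 of 39 neighbours. Within odd arrays 230 genes were called between DC101 day 60 and DC101 day 20, and within even arrays 206. By limma the odd and even changes differed in 0 genes after adjustment. At an unadjusted p under 0.05 they differed in 515 of 14718, a smaller share than the 0.05 expected with no difference. Only 3 odd day 60 and 4 odd day 20 arrays entered, so a difference could be missed. Of 36 pan-endothelial genes 14 fell within odd arrays and 0 within even ones, with median changes of -1.28 and -0.41. Day 60 arrays 91 and 92, which have neighbouring numbers, were also alike in Ighm, the constant region of IgM, at 14.04 and 14.46, against 11.004 to 11.889 on the other 4 day 60 arrays and 10.29 to 11.82 at day 20.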
